A study of Mus musculus with 28 samples.

Results

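The 8 libraries described here came from cultures of DC2 cells kept in ethanol vehicle, 4 collected at day 6 and 4 at day 9, out of 28 libraries in the series. They were chosen by their labels (treatment vehicle, day 6 or day 9), not by any measured value, and the comparison covered the 13128 genes tested. DC2 is an immortalized mouse line from the distal caput of the epididymis, the stretch of the male tract in which sperm mature, and it is a single line, so nothing here speaks for other epididymal cells. Cells grew on collagen in a serum-supplemented medium (10% fetal bovine serum), and at confluency received either 0.1% ethanol or corticosterone, the main glucocorticoid of mice, at 500 ng/ml in the same amount of ethanol. Medium was changed at 72 hours (day 3) and 144 hours (day 6), and the day 6 and day 9 cultures were therefore each collected 3 days after their last change of medium. The 7 groups of 4 libraries were vehicle at days 0, 3, 6 and 9 and corticosterone at days 3, 6 and 9, with the hormone given for the first 3 days. No group differed in genotype or strain. The labels number the vehicle libraries 3 to 6 on each day but do not say that these were separate cultures, so p-values measure the spread between libraries, which may be technical.

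Cells sense oxygen through prolyl hydroxylases, which mark the alpha subunits of hypoxia-inducible factors for destruction. When the hydroxylases slow, the factors bind a short element near genes for glucose uptake, glycolysis, vessel growth and mitochondrial turnover, and also near the hydroxylase genes themselves, a feedback loop. Cholesterol is made from acetyl-CoA through a chain of enzymes whose genes are read together by sterol regulatory element-binding proteins, which Scap escorts from the endoplasmic reticulum and Insig1 holds there.

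Between day 6 and day 9 in vehicle, 616 genes (4.69% of those tested) rose and 413 (3.15%) fell at a Benjamini-Hochberg adjusted p under 0.05 in limma, 1029 in either direction (7.84%). Most of these changes were small. The median log2 fold change was 0.39 among genes that rose and -0.27 among genes that fell, and 56 rose but only 6 fell by at least 2-fold. Over all genes tested the median was -0.00064, with 1 gene in 20 below -0.28 and 1 in 20 above 0.38. The 4 libraries of one day lay wholly above those of the other for 1239 genes in the direction of a rise (9.44%) and for 1024 in that of a fall (7.8%). Pairs of libraries differed by a root mean square of 0.29 to 0.41 log2 units within day 6, by 0.30 to 0.38 within day 9 and by 0.35 to 0.45 between the days. The count of genes that fell was the less stable: it was 268 without day 6 replicate 3 and 271 without day 6 replicate 4. With weights per library both counts were larger, at 1397 that rose and 1073 that fell. Annotated length, taken for each gene as the median over all its GENCODE M21 transcripts, had a median of 1914 bases among genes that fell. It was 1570 among genes that rose and 1459 for all genes. The lengths of the transcripts present in these cells were not measured.

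**Figure D1:**
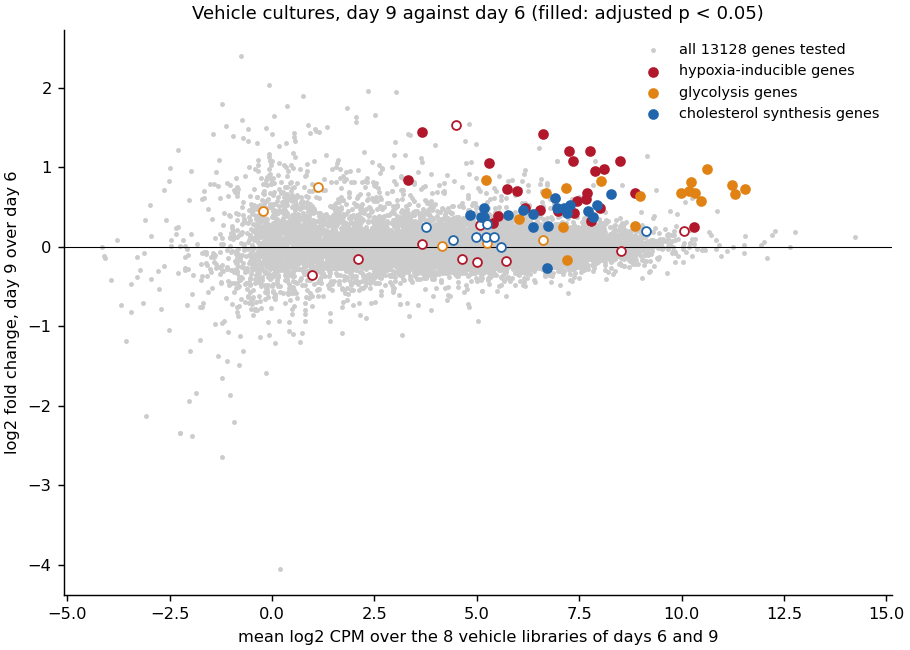
Log2 fold change of vehicle day 9 over day 6 (y axis) against the mean log2 CPM over the 8 libraries (x axis) for each of the 13128 genes tested. Members of the hypoxia, glycolysis and cholesterol synthesis lists are coloured, filled where the adjusted p was under 0.05. Of these lists 25 of 35, 17 of 23 and 18 of 27 members rose, beside 4.69% of all genes tested.

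The label of the cells was checked against markers. Of 11 epithelial markers, 7 were measured. Cdh1 (E-cadherin) stood at 3.78, 3.76, 3.66 and 3.68 log2 CPM in the day 6 libraries and 3.88, 4.00, 3.74 and 3.74 at day 9, while Epcam lay below 0 in all 8 libraries (-0.76 and -1.22 by mean) and Krt8 between -0.14 and 1.48. Krt18, a keratin of simple epithelia, was higher, at 4.49, 4.47, 4.45 and 4.37 and then 4.80, 4.78, 4.87 and 4.66, and was the 1 marker of the 7 that passed the test, with a rise of 0.33 ± 0.095 (adjusted p = 0.0281). That call ended without any one of day 6 replicates 4, 5 or 6 or day 9 replicates 3, 4 or 5 (0.30 to 0.34). Levels thus differed widely between the markers, and the summed level of the 7 was 44.2 to 45.9 CPM at day 6 and 50.6 to 57.1 CPM at day 9. Of 4 fibroblast markers measured out of 10, Pdgfra and Pdgfrb rose, and the sum went from 69.0 to 73.4 CPM at day 6 to 78.6 to 91.9 CPM at day 9. Of 3 leukocyte markers measured out of 13, Cd68 rose and Cd14 and Csf1r did not pass the test (-0.03 and -0.21), and the sum went from 92.6 to 104 CPM to 133 to 149 CPM. Summed levels of endothelial markers (4 of 8 measured) and smooth muscle markers (4 of 8) overlapped between the days, at 7.79 to 9.27 against 7.33 to 11.1 CPM and at 94.3 to 109 against 97.4 to 120 CPM. None of 5 clear cell markers was among the genes tested, and the markers not measured were not analysed here. The part of these markers in the results below was not tested, and in such bulk libraries fewer cells of a type and less RNA per cell cannot be told apart.

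Hypoxia-inducible genes rose as a group, and whether hypoxia-inducible factors drove them was not tested. Of 35 measured members of the list, 25 rose and 0 fell, beside 4.69% and 3.15% of all genes tested. The list's median log2 fold change was 0.49, beside -0.00064 for all genes. Day 9 libraries lay wholly above those of day 6 for 9.44% of all genes tested. Among the oxygen sensors themselves, Egln3, a prolyl hydroxylase, was at 5.67, 5.67, 6.12 and 6.12 log2 CPM in day 6 replicates 3, 4, 5 and 6 and at 7.31, 7.26, 7.45 and 7.25 in those of day 9. All day 9 libraries lay above all day 6 libraries, a log2 fold change of 1.42 ± 0.15 (SE, n = 4 per group; 2.67-fold, limma adjusted p = 2.07e-07). Egln1, the main prolyl hydroxylase of most cells, was at 7.41, 7.46, 7.78 and 7.80 and then 8.61, 8.49, 8.63 and 8.63. It rose by 0.98 ± 0.081 (adjusted p = 1.18e-08), again with no overlap. Higd1a, a protein of the inner mitochondrial membrane, rose by 1.07 ± 0.11 and P4ha1, a collagen prolyl hydroxylase, by 0.68 ± 0.075 (adjusted p = 2.82e-07 and 8.62e-07). Bnip3, which marks mitochondria for removal, was at 7.71, 7.89, 8.11 and 8.14 and then 9.06, 8.94, 9.01 and 9.16. It rose by 1.08 ± 0.13 (adjusted p = 1.66e-06).

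Among other members of the list, Vegfa, the growth factor of blood vessels, was at 7.62, 7.78, 7.79 and 7.85 log2 CPM at day 6 and 8.23, 8.30, 8.35 and 8.13 at day 9, a rise of 0.49 ± 0.062 (adjusted p = 5.08e-06). Adm encodes adrenomedullin, a vasodilator peptide. It was at 2.57, 2.59, 3.24 and 3.36 and then 4.54, 4.31, 4.59 and 4.08, a rise of 1.44 ± 0.35 (adjusted p = 0.00862). Ankrd37, a strongly hypoxia-inducible gene of little-known function, rose by 1.05 ± 0.24 (adjusted p = 0.00465) from 4.29, 4.54, 5.16 and 5.09 to 5.76, 5.62, 5.83 and 6.07. Within day 6, replicates 5 and 6 lay above replicates 3 and 4 in each of the hypoxia genes whose 8 values are given, by a narrow margin in Vegfa. This order, looked for after the values were seen, held for 23 of the 25 hypoxia genes that rose, for 256 of all 616 genes that rose (41.6%) and for 3141 of all genes tested (23.9%). The labels give no batch for these libraries. Of the 10 members that did not pass the test, Ak4, an adenylate kinase, moved most, from 3.72 ± 0.29 (SD) to 5.25 ± 0.13 log2 CPM. Its log2 fold change was 1.53 ± 0.61 (adjusted p = 0.131), and it passed when the 8 libraries were fitted alone (adjusted p = 0.00014) or when 1 or 5 was added to the CPM before taking the log (1.46 and 1.24). It was named after its values were seen.

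Promoters of 3 risers are printed because they show the element that hypoxia-inducible factors bind. The windows run from 250 bases before to 50 bases after the RefSeq start in the build GRCm38.p6. They were searched for the core ACGTG on both strands, and matches are in capitals. The core and its reverse complement overlap in CACGTG, which counts as 2 matches, and such a match is a description and not evidence of a bound site.
Egln3, chr12:54203825-54204124, minus strand: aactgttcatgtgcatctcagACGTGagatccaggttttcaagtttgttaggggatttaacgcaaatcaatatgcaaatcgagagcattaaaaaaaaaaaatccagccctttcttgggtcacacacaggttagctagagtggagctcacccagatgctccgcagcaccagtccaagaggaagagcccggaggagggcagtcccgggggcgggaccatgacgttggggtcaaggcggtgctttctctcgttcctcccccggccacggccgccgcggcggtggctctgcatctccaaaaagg
Bnip3, chr7:138909457-138909756, minus strand: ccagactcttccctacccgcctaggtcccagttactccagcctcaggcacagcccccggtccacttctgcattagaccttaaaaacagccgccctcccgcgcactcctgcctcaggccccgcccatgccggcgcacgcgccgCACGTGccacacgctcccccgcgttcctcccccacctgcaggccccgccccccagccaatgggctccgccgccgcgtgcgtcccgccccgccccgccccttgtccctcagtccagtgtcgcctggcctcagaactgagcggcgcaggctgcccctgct
Pgk1, chrX:106186850-106187149, plus strand: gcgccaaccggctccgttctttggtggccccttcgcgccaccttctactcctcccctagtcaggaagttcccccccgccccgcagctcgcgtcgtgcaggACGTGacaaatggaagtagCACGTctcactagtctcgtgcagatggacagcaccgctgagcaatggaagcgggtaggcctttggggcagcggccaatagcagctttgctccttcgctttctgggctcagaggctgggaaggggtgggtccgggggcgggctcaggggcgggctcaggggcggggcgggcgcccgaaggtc
Egln3 held 1 match and Bnip3 and Pgk1 held 2 each, the pair in Bnip3 being the 2 strands of a single CACGTG. Windows were at hand for 30 of the 35 hypoxia genes measured, and 21 of their 43 windows held the core (48.8%). It was found in 17 of 33 windows of 22 glycolysis genes (51.5%), in 24.9% of the windows of all genes tested and in 19.6% of all windows of the table.

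Most measured enzymes and transporters of glycolysis rose. Of 23 members, 17 rose, 1 fell and 5 did not pass the test. Of all genes tested 4.69% rose and 3.15% fell. The median log2 fold change of the members was 0.67. The list shares no gene with the hypoxia list as drawn up here. For the entry of glucose, Slc2a1 (the transporter GLUT1) was at 7.47, 7.57, 7.65 and 7.74 log2 CPM at day 6 and 8.50, 8.40, 8.49 and 8.37 at day 9, a rise of 0.83 ± 0.055 (1.78-fold, adjusted p = 5.03e-10). Pgm1, which links glycogen to glycolysis, rose by 0.68 ± 0.063 (adjusted p = 4.59e-08). In the later steps, Pgk1 (phosphoglycerate kinase) was at 9.94, 10.03, 10.31 and 10.26 and then 11.14, 11.02, 11.19 and 11.09. It rose by 0.97 ± 0.088 (adjusted p = 3.99e-08), or 1.96-fold. Pkm (pyruvate kinase) rose by 0.66 ± 0.054 (adjusted p = 1.13e-08). Ldha, the lactate dehydrogenase subunit favoured in lactate production, was at 9.66, 9.77, 9.96 and 9.85 and then 10.64, 10.57, 10.64 and 10.64, a rise of 0.81 ± 0.083 (adjusted p = 1.93e-07). Day 9 lay above day 6 in all 8 libraries for each of these genes, as it did for 9.44% of all genes tested. In all 17 risers day 6 replicates 5 and 6 lay above replicates 3 and 4. Pfkm, the muscle-type phosphofructokinase, was the 1 member that fell, by 0.17 ± 0.053 (adjusted p = 0.0423), from 7.27, 7.33, 7.31 and 7.29 to 7.11, 7.23, 7.09 and 7.06. That call ended when any one of day 6 replicates 3, 4, 5 or 6 or day 9 replicates 3, 5 or 6 was left out, with values between -0.18 and -0.15. It also ended with no intensity trend (adjusted p = 0.0520) and with the length trend removed (-0.15, adjusted p = 0.121). Several glycolytic genes have near-identical processed copies in the mouse genome, and how reads were divided among copies was not given in the sources used here.

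**Figure D2:**
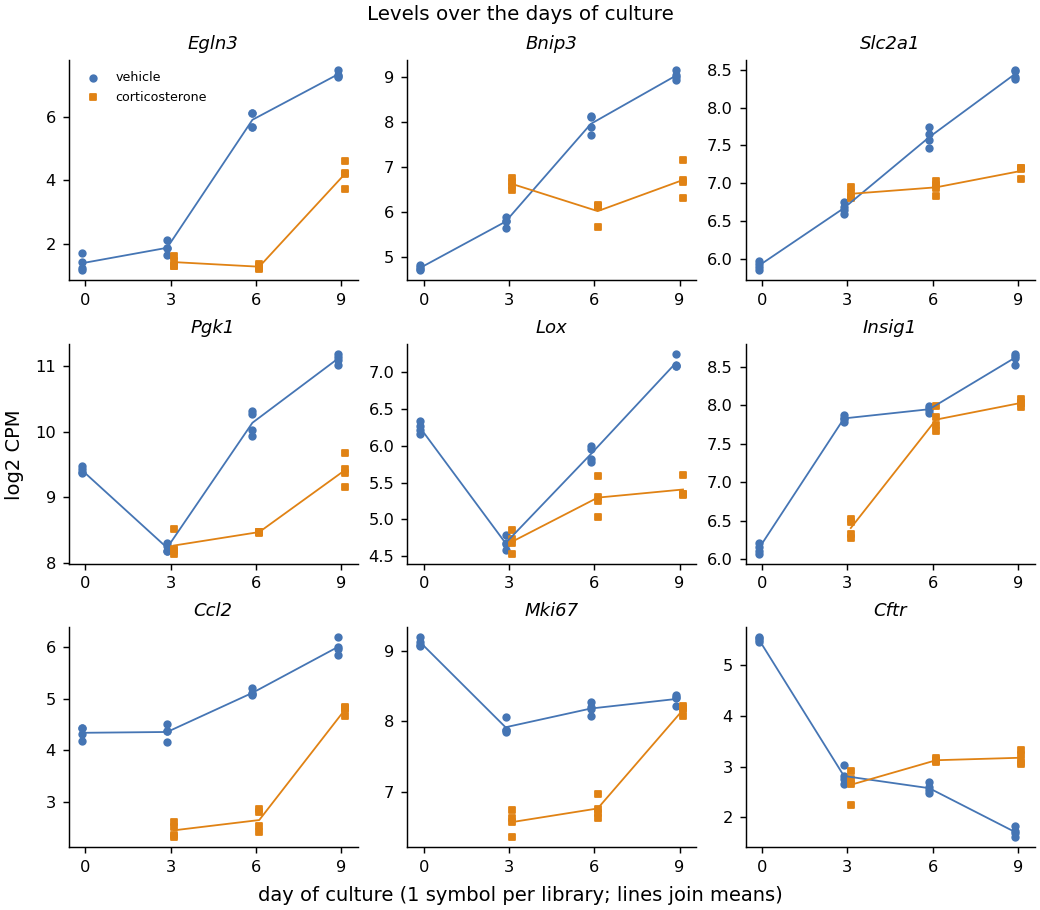
Log2 CPM (y axis, a scale per gene) of 9 genes over the days of culture (x axis), with 1 symbol per library, circles for vehicle and squares for corticosterone, and lines through the means of 4. Egln3 in vehicle averaged 1.41 at day 0 and 7.32 at day 9, whereas Cftr went from 5.51 to 1.72.

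Placed against the earlier vehicle libraries, the list mean of the hypoxia genes was 4.49 log2 CPM at day 0, 4.92 at day 3, 5.97 to 6.21 in the day 6 libraries and 6.62 to 6.70 in those of day 9. The glycolysis mean was 6.595 at day 0 and 6.597 at day 3, then 7.39 to 7.57 and 7.98 to 8.02. The highest levels of both lists over the vehicle days were thus at day 9. Pgk1 and Ldha had lower means at day 3 (8.23 and 7.89) than at day 0 (9.41 and 9.12), while Slc2a1 and Bnip3 had higher ones (6.67 and 5.78 against 5.91 and 4.75).

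Oxidative genes did not rise with the glycolytic ones. Among 76 nuclear-encoded subunits of the respiratory chain and ATP synthase, 0 rose and 1 fell in limma, with a median of -0.02. The shares over all genes tested were 4.69% and 3.15%. Of 25 genes of the tricarboxylic acid cycle and pyruvate entry, 1 rose and 3 fell. Ogdh (oxoglutarate dehydrogenase) was at 8.05, 8.01, 7.98 and 7.92 log2 CPM and then 7.77, 7.83, 7.75 and 7.51, a fall of 0.27 ± 0.061 (adjusted p = 0.00497). Of 25 fatty acid oxidation genes, 0 rose and 4 fell. Cpt1a, which admits long-chain fatty acids to mitochondria, went from 6.93, 6.90, 6.83 and 6.77 to 6.54, 6.65, 6.45 and 6.33, a change of -0.37 ± 0.065 (adjusted p = 0.000420). Transcripts of the mitochondrial genome took 5.64 ± 0.19% of CPM at day 6 and 5.83 ± 0.20% at day 9 (SD, n = 4 each; exact two-sided permutation p = 0.286, the smallest possible being 0.0286). That difference of 0.187 percentage points was 0.334 with CPM summed as deposited, not divided by each library's sum (exact permutation p = 0.0286), and 0.0974 without day 9 replicate 6 or 0.107 without day 6 replicate 6. Of 11 such transcripts 0 were called in limma, 4 had an unadjusted p under 0.05 (3 of them higher), and 2 rose with weights per library.

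Most genes of cholesterol synthesis and uptake rose as well. Of 27 measured, 18 rose and 1 fell, beside 4.69% and 3.15% of all genes tested. Their median log2 fold change was 0.38. Insig1, the sterol-dependent brake on the pathway and itself one of its targets, was at 7.99, 7.94, 7.90 and 7.96 log2 CPM and then 8.65, 8.53, 8.67 and 8.62. It rose by 0.67 ± 0.057 (1.59-fold, adjusted p = 1.94e-08). Among the enzymes, Sqle (squalene epoxidase) rose by 0.52 ± 0.048 and Cyp51 (lanosterol demethylase) by 0.45 ± 0.051 (adjusted p = 4.39e-08 and 1.32e-06). Stard4, a cytosolic carrier of sterols, rose by 0.61 ± 0.065 (adjusted p = 3.89e-07). In all 4 genes every day 9 library lay above every day 6 library, as in 9.44% of all genes tested. Scap fell by 0.27 ± 0.072 (adjusted p = 0.0175), but not without day 6 replicate 5 (-0.22) or day 9 replicate 6 (-0.23). Only 1 of the 18 risers had day 6 replicates 5 and 6 above 3 and 4, unlike the hypoxia and glycolysis genes. The list mean was 5.55 at day 0, 6.05 at day 3, 6.08 to 6.15 in the day 6 libraries and 6.376 to 6.496 in those of day 9.

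The promoter of Hmgcs1, an early enzyme of the pathway that rose by 0.49 ± 0.072 (adjusted p = 3.99e-05) and is named for this match, is printed because it was the 1 window of 23, from 19 genes, that held the sterol element TCACNCCAC on either strand (4.35%, against 1.13% of the windows of all genes tested and 1.24% of all windows).
Hmgcs1, chr13:119690101-119690400, plus strand: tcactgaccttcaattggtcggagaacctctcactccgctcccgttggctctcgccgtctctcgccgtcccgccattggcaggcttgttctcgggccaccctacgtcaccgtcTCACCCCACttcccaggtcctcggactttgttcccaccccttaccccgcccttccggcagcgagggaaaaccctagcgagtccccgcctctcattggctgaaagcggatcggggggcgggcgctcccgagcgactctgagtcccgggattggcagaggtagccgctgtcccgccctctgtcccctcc
The match is in capitals. Of 11 genes of sterol efflux, 0 were called in limma (at an unadjusted p under 0.05, 1 was higher and 3 lower, and with weights per library 1 rose and 2 fell). Of 26 genes of fatty acid and triglyceride synthesis, 5 rose and 0 fell, beside 4.69% and 3.15% of all genes tested. The desaturase genes Scd1 and Scd2 rose by 0.62 ± 0.051 and 0.45 ± 0.049 (adjusted p = 1.18e-08 and 4.88e-07).

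**Figure D3:**
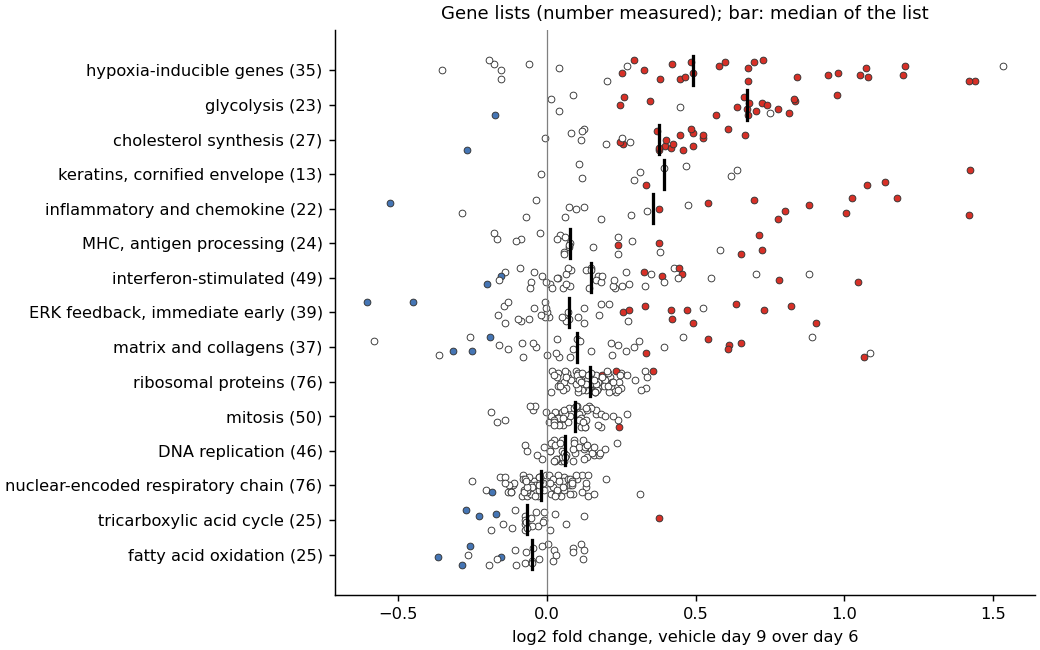
Log2 fold change of vehicle day 9 over day 6 (x axis) for the measured members of 15 gene lists (rows, with the number measured). Each point is a gene, red where it rose and blue where it fell at adjusted p under 0.05 and white where it did not pass, and the black bar is the list's median, which was highest for glycolysis (0.67) and hypoxia-inducible genes (0.49).

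The 15 largest rises lay largely outside these pathways. They were taken from called genes without overlap between the days and with a mean log2 CPM of at least 1. Pdgfra, described below, rose by 2.03 but lay outside these limits. Aire, the transcription factor known for the display of tissue antigens in the thymus, was at 1.88, 1.83, 2.26 and 2.26 log2 CPM in the day 6 libraries and 3.90, 3.91, 4.14 and 4.07 at day 9. The groups were far apart, a rise of 1.95 ± 0.37 (3.85-fold, adjusted p = 0.000963), and the vehicle means at days 0 and 3 were -2.34 and -2.62. The inflammasome-related gene Nlrp10 rose by 1.66 ± 0.24, the engulfment receptor Megf10 by 1.63 ± 0.30 and the leukocyte integrin subunit Itgb2 by 1.55 ± 0.22 (adjusted p = 4.70e-05, 0.000725 and 3.16e-05). Ppp1r3b, which targets a phosphatase to glycogen, rose by 1.51 ± 0.24 and the potassium channel Kcnk2 by 1.46 ± 0.24. The serine protease inhibitor Serpina3n rose by 1.44 ± 0.24, from 0.042, 0.72, 0.62 and 0.34 to 1.81, 1.84, 1.98 and 1.86. Lcn2, an iron-trapping lipocalin, was at 2.56, 2.50, 2.84 and 2.57 and then 4.08, 3.97, 4.11 and 3.98 and rose by 1.42 ± 0.23 (adjusted p = 0.000200). Atg9b, an autophagy lipid scramblase, rose by 1.41 ± 0.13, the vesicle-priming gene Unc13a by 1.32 ± 0.13, the kinase Prkg2 by 1.28 ± 0.16 and the secreted protein Olfml3 by 1.28 ± 0.21 (adjusted p from 3.95e-08 to 0.000153). The collagen-binding integrin Itga2 rose by 1.31 ± 0.34 (adjusted p = 0.0150), a call that ended without day 9 replicate 3 (1.17) or 5 (1.21). Adm and Egln3, described above, complete the 15.

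**Figure D4:**
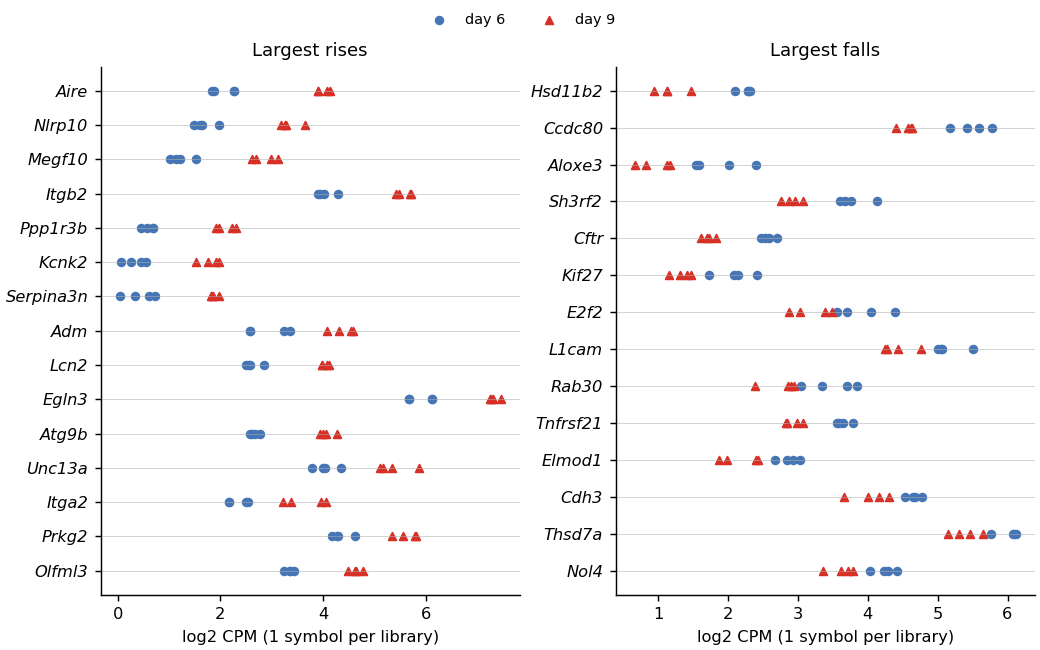
Log2 CPM (x axis) of the 15 largest rises and 14 of the 15 largest falls (rows, in order of size), with 1 symbol per library, circles for day 6 and triangles for day 9. In every row the 4 libraries of one day lie on one side of the 4 of the other, as the rule for these genes required. That rule also required an adjusted p under 0.05 and a mean log2 CPM of at least 1.

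The largest falls, taken under the same limits, were smaller. Hsd11b2 encodes the enzyme that inactivates glucocorticoids. It was at 2.10, 2.32, 2.29 and 2.29 log2 CPM and then 1.13, 1.47, 1.13 and 0.94, a fall of 1.08 ± 0.16 (adjusted p = 5.46e-05). Cftr, the chloride channel that sets the fluid of the epididymal duct, was at 2.53, 2.70, 2.59 and 2.48 and then 1.82, 1.70, 1.73 and 1.61, a fall of 0.86 ± 0.10 (adjusted p = 2.23e-06). The matrix-associated gene Ccdc80 changed by -0.94 ± 0.13 and the ubiquitin ligase gene Sh3rf2 by -0.87 ± 0.14 (adjusted p = 2.11e-05 and 0.000111). Cdh3 (P-cadherin) went from 4.77, 4.68, 4.65 and 4.53 to 4.16, 4.30, 4.00 and 3.66, a change of -0.63 ± 0.11 (adjusted p = 0.000262). The kinesin Kif27, the adhesion gene L1cam, the death receptor Tnfrsf21, Elmod1 and Thsd7a changed by -0.76 ± 0.16, -0.73 ± 0.15, -0.71 ± 0.095, -0.70 ± 0.12 and -0.62 ± 0.12. The calls of another 4 were less stable. Aloxe3, an epidermal lipoxygenase, changed by -0.94 ± 0.26 (adjusted p = 0.0261), but the call ended without day 6 replicate 4 (-0.89) or 6 (-0.77) or day 9 replicate 5 (-0.90) or 6 (-0.84). For Rab30, a Golgi GTPase (-0.72 ± 0.21, adjusted p = 0.0318), this held of day 6 replicates 4 (-0.64) and 6 (-0.59) and day 9 replicates 4 (-0.59) and 6 (-0.74). Both calls also ended with 5 added to the CPM (-0.33 and -0.46, adjusted p = 0.0712 and 0.0549). The call of E2f2, a cell cycle factor (-0.73 ± 0.19, adjusted p = 0.0145), ended without day 6 replicate 6 (-0.57) or day 9 replicate 4 (-0.62) or 5 (-0.67), and that of Nol4 (-0.62 ± 0.17, adjusted p = 0.0208) without day 6 replicate 3 (-0.56) or 4 (-0.60) or day 9 replicate 3 (-0.53). Among 12 measured genes of epididymal secretion, fluid and androgen response, 1 rose and 2 fell, beside 4.69% and 3.15% of all genes tested. The water channel Aqp1 rose by 0.58 ± 0.086 (adjusted p = 5.18e-05), opposite to Cftr.

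Genes of inflammation and antigen display moved in part, beside 4.69% of all genes tested that rose and 3.15% that fell. Of 22 inflammatory and chemokine genes measured, Lcn2 among them, 10 rose and 1 fell, with a median of 0.36. Ccl2, which draws monocytes, was at 5.20, 5.06, 5.10 and 5.08 log2 CPM and then 5.96, 5.83, 6.00 and 6.19, a rise of 0.88 ± 0.094 (adjusted p = 4.27e-07). Ccl7 rose by 1.02 ± 0.16 and the neutrophil attractant Cxcl1 by 0.70 ± 0.11, whereas Cxcl14 fell by 0.53 ± 0.12 (adjusted p = 6.51e-05, 0.000146 and 0.00452). The call of Cxcl14 ended with the 8 libraries fitted alone (adjusted p = 0.0504). Of 21 genes of the NF-kB pathway, 6 rose and 0 fell. Tnfaip3, its feedback inhibitor A20, rose by 0.75 ± 0.10 from 4.27, 4.21, 4.29 and 4.29 to 5.04, 5.01, 5.08 and 4.93 (adjusted p = 1.51e-05), and Nfkbiz rose by 0.28 ± 0.041 (adjusted p = 3.86e-05). Of 24 genes of class I antigen presentation, 5 rose and 0 fell. H2-K1, a class I heavy chain, rose by 0.72 ± 0.063 and H2-T23 by 0.65 ± 0.092 (adjusted p = 2.95e-08 and 2.60e-05), while their light chain B2m did not pass (0.24 ± 0.083, adjusted p = 0.0826). It did pass with the 8 libraries fitted alone, with weights per library and with the length trend removed (adjusted p = 0.0109, 0.000234 and 0.0330). Class I genes are near-identical copies of each other, so their values are uncertain. Of 49 interferon-stimulated genes, 6 rose and 2 fell. Oasl2 and Ifi27 rose by 0.44 ± 0.090 and 0.78 ± 0.16. Beside these groups Cd68, a lysosomal protein abundant in macrophages, rose by 0.92 ± 0.099, from 5.70, 5.61, 5.84 and 5.66 to 6.68, 6.59, 6.76 and 6.44 (adjusted p = 4.95e-07), and its part in these results was not tested.

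Among matrix genes, the copper enzyme Lox, which crosslinks collagen, rose with little spread. It was at 5.78, 5.82, 6.00 and 5.95 log2 CPM at day 6 and 7.09, 7.08, 7.25 and 7.10 at day 9, a rise of 1.24 ± 0.088 (2.36-fold, adjusted p = 1.10e-09), and the days lay far apart. Of 29 matrix proteases, inhibitors and crosslinkers, 5 rose and 3 fell, beside 4.69% and 3.15% of all genes tested. The protease Adamts9 rose by 0.92 ± 0.093 and its relative Adamts5 fell by 0.30 ± 0.042 (adjusted p = 1.87e-07 and 2.14e-05). Of 37 collagens and other structural matrix genes, 6 rose and 3 fell. Col12a1 rose by 0.65 ± 0.077 and Fn1 (fibronectin) by 0.61 ± 0.10, and Col6a2 fell by 0.25 ± 0.058 (adjusted p = 2.24e-06, 0.000228 and 0.00618). The fibroblast markers Pdgfrb and Pdgfra rose with them, by 0.33 ± 0.056 and 2.03 ± 0.47 (adjusted p = 0.000301 and 0.00609). Pdgfra was below 0 log2 CPM in all day 6 libraries and between -0.071 and 2.03 at day 9, so its fold depends on the authors' prior count. The part of these markers was not tested.

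Of 39 immediate early genes and feedback inhibitors of MAP kinase signalling, 11 rose and 2 fell, with a median of 0.07. Over all genes tested 4.69% rose and 3.15% fell. Etv4, an ETS factor induced by ERK, rose by 0.91 ± 0.22, the AP-1 subunit Fosl1 by 0.73 ± 0.12, Maff by 0.64 ± 0.094 and the ERK phosphatase Dusp5 by 0.42 ± 0.088 (adjusted p = 0.00818, 0.000117, 5.07e-05 and 0.00259). Egr1 did not pass (0.27 ± 0.10, adjusted p = 0.118), but did without day 9 replicate 6 (0.37) or with weights per library (0.31). Of 13 keratin and cornified envelope genes, 4 rose and 0 fell. Sprr1a, a cross-linked envelope protein whose family members are near copies, was at 8.32, 8.35, 8.94 and 8.70 and then 9.88, 9.68, 9.88 and 9.41, a rise of 1.14 ± 0.18 (adjusted p = 9.37e-05). Of 19 iron and metal handling genes, 5 rose and 0 fell, among them the ferroxidase Cp by 0.56 ± 0.068, the ferrireductase Steap3 by 0.46 ± 0.058 and the transferrin receptor Tfrc by 0.30 ± 0.058 (adjusted p = 2.64e-06, 5.38e-06 and 0.00139).

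Few genes of cell division passed the test. Over all genes tested only 4.69% rose and 3.15% fell, so counts this low are not read as particular to these lists. Of 50 mitosis genes 1 rose and 0 fell, with a median of 0.09. Of 46 genes of DNA replication and nucleotide synthesis 0 were called in limma, with a median of 0.06. Values were positive for 43 of the mitosis and 41 of the replication genes. Day 9 lay wholly above day 6 for 7 and 11 of them, beside 9.44% of all genes tested. Of the replication genes, 10 were higher at an unadjusted p under 0.05 and 10 rose with weights per library. Mki67, a mark of cycling cells, was at 8.27, 8.20, 8.08 and 8.18 log2 CPM and then 8.33, 8.22, 8.38 and 8.35 (0.14 ± 0.071, adjusted p = 0.291), and the days overlapped. The topoisomerase Top2a and cyclin Ccnb1 differed by 0.13 ± 0.083 and 0.074 ± 0.079 (adjusted p = 0.403 and 0.678), and Top2a passed with weights per library (0.17, adjusted p = 0.0462). Of 27 G1 cyclins, inhibitors and related cell cycle genes, 2 rose and 1, E2f2, fell. The risers E2f1 and Cdkn2d changed by 0.30 ± 0.055 and 0.33 ± 0.094 (limma adjusted p = 0.000825 and 0.0260). All 76 cytosolic ribosomal protein genes had positive values, with a median of 0.15, but only 3 of them passed the test, against 39 with weights per library. Of 19 glucocorticoid receptor targets, 5 rose and 0 fell. The risers included Lcn2, Nfkbia and Ddit4, which also stand in other lists, so the count is not read as particular to the receptor. Fkbp5 and Tsc22d3, 2 of the best-known targets, did not pass (-0.18 ± 0.12 and -0.25 ± 0.14, adjusted p = 0.453 and 0.346), though Tsc22d3 did with the 8 libraries fitted alone (adjusted p = 0.0192). Of 22 unfolded protein response genes and 23 Wnt targets and regulators, 0 were called by limma. At an unadjusted p under 0.05 these lists held 2 higher and 1 lower, and 2 higher and 2 lower, and with weights per library 5 rose and 1 fell, and 2 rose and 2 fell.

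Cultures that had received corticosterone for the first 3 days were also collected at day 6 and day 9, and the change between those days was compared with that in vehicle by an interaction contrast over libraries that the 2 changes do not share. In the corticosterone cultures 3301 genes (25.1%) rose and 3204 (24.4%) fell from day 6 to day 9. The change in vehicle lay above that in corticosterone cultures for 1961 genes (14.9%) and below it for 2101 (16%). Of the 616 genes that rose in vehicle, 190 had a more positive change than in corticosterone cultures, 144 a less positive one and 282 were not called different. Of the 413 that fell, 136 had a more negative change in vehicle, 77 a less negative one and 200 were not called different. Across the hypoxia list the vehicle change was above in 16 genes and below in 8 of 35. Bnip3 was not called different (0.38 ± 0.18, adjusted p = 0.106) with the libraries as they stand, but was without corticosterone day 6 replicate 6 (0.50) or day 9 replicate 5 (0.53), or with weights per library (0.53). Slc2a1 rose more in vehicle (0.83 ± 0.055 against 0.22 ± 0.055, a difference of 0.61 ± 0.078, adjusted p = 8.51e-07). Vegfa rose in vehicle and fell in the corticosterone cultures (-0.17 ± 0.062), a difference of 0.66 ± 0.088 (adjusted p = 1.78e-06). Adm did likewise (-1.05 ± 0.35, a difference of 2.49 ± 0.49, adjusted p = 0.000289).

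Other genes of the hypoxia and glycolysis lists changed less in vehicle, from higher levels. Egln3 rose by 2.89 ± 0.15 in corticosterone cultures, from a mean of 1.30 to 4.19, a difference of changes of -1.47 ± 0.21 (adjusted p = 3.53e-06). Its level at day 9 in those cultures was still below that of vehicle at day 6 (5.90). Ankrd37 and Ldha differed by -2.08 ± 0.33 and -0.75 ± 0.12 (adjusted p = 2.40e-05 and 1.69e-05). With 5 added to the CPM before taking the log, the differences for Egln3 and Ankrd37 were -0.30 and -0.41 and did not pass (adjusted p = 0.115 and 0.0846). Lox rose in vehicle but not beyond the threshold in corticosterone cultures (0.11 ± 0.088, adjusted p = 0.314), a difference of 1.13 ± 0.13 (adjusted p = 1.01e-07), and Insig1 rose more in vehicle by 0.45 ± 0.081 (adjusted p = 0.000104). Ccl2 rose less in vehicle (-1.24 ± 0.13, adjusted p = 7.07e-08). Hsd11b2 and Cftr, which fell in vehicle, changed by -0.065 ± 0.16 and 0.049 ± 0.10 in corticosterone cultures, differences of -1.02 ± 0.23 and -0.91 ± 0.14 (adjusted p = 0.00113 and 2.16e-05). In the mitosis list the vehicle change lay below in 49 of 50 genes and above in 0, beside 16% and 14.9% of all genes tested. For Mki67 it differed by -1.27 ± 0.10 (adjusted p = 4.76e-10). Corticosterone cultures went from 6.76 to 8.17 log2 CPM by mean, and vehicle went from 8.18 to 8.32.

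**Figure D5:**
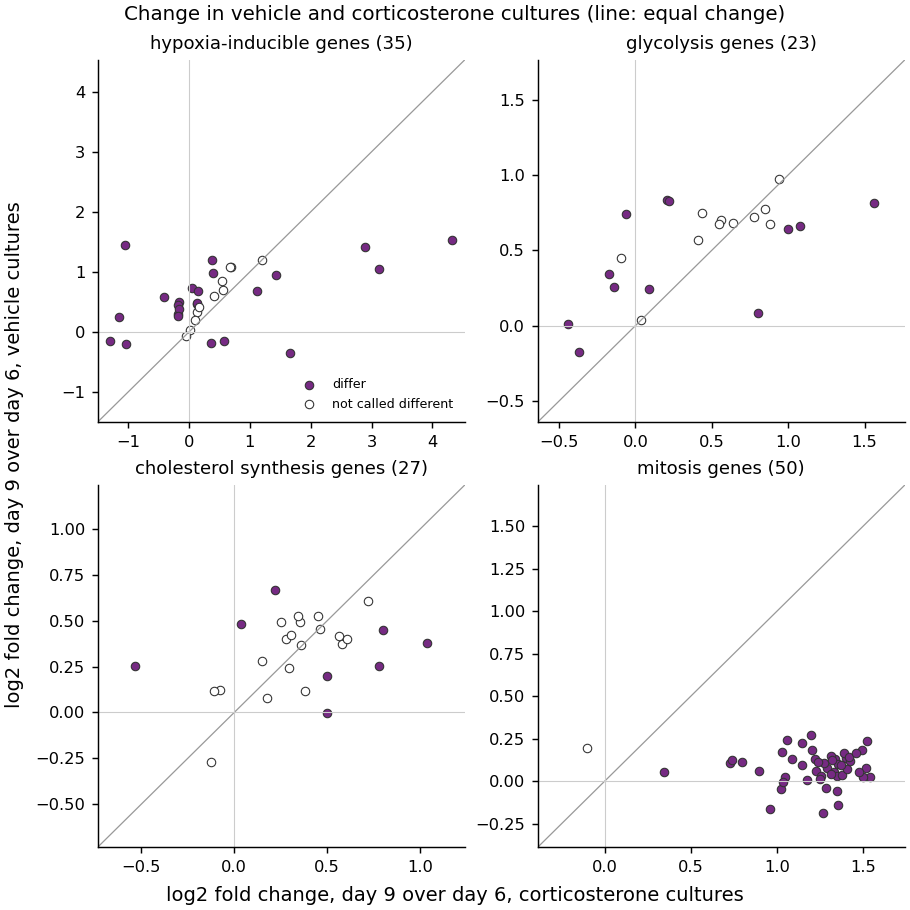
Log2 fold change of day 9 over day 6 in vehicle cultures (y axis) against that in corticosterone cultures (x axis) for members of 4 gene lists, filled where the changes differed at adjusted p under 0.05, with a grey line of equal change. Of the 50 mitosis genes, 49 lie below the line and are filled, while 19 of the 27 cholesterol synthesis genes are not called different.

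The 5 largest differences between the changes in each direction belonged to genes that all changed in the corticosterone cultures, in limma, by more than in vehicle. Sgk1, a kinase induced by glucocorticoids, differed by 5.71 ± 0.40, Trim67 by 4.03 ± 0.14, Cyp4a12a by 3.88 ± 0.41, Igfbp3 by 3.81 ± 0.23 and Lcn2 by 3.39 ± 0.33 (adjusted p from 1.42e-16 to 4.21e-08). Of these 5, Lcn2 passed the test of the vehicle change in the fit of all libraries (1.42 ± 0.23, against -1.97 ± 0.23 in corticosterone cultures), whereas Sgk1, Trim67, Cyp4a12a and Igfbp3 did not (0.80 ± 0.28, 0.25 ± 0.10, 0.76 ± 0.29 and 0.43 ± 0.16). Sgk1 did pass with the 8 vehicle libraries fitted alone (adjusted p = 0.00526), and all 4 did with weights per library (adjusted p = 0.0107, 0.0435, 0.0270 and 0.0374). In the other direction the water channel Aqp5 differed by -4.07 ± 0.28, Mgp by -3.43 ± 0.29, Cd300lb by -3.31 ± 0.30, Spp1 by -3.11 ± 0.45 and Samd5 by -2.99 ± 0.26 (adjusted p from 3.33e-11 to 5.23e-06). Of these, Aqp5, Mgp and Cd300lb did not pass in vehicle (0.42 ± 0.20, 0.39 ± 0.20 and 0.44 ± 0.21) but did with 1 added to the CPM (0.38, 0.33 and 0.37). Samd5 had a negative value in vehicle and did not pass (-0.19 ± 0.18, limma adjusted p = 0.638). Spp1 (osteopontin) rose in vehicle by 1.07 ± 0.32 (adjusted p = 0.0352), a call that ended without any one of day 6 replicates 3, 4 or 6 or day 9 replicates 3, 5 or 6 (1.00 to 1.07). Cyp4a12a was below 0 log2 CPM in all 8 vehicle libraries, so its values rest on very few reads.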

How the data were processed

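RNA was measured in DC2 cultures by sequencing of stranded mRNA libraries from 500 ng of total RNA. The deposited values are log2 CPM (each library's counts scaled to a common total, on the log2 scale), normalized by the authors. The submitters' processing notes name kallisto without a version, edgeR 3.40.1, limma 3.54.0 and the build mm10 but assign them no role. Which annotation, prior count and normalization were used is not given in the sources used here. Depth is unknown, so counts were not modelled and no interval or floor is given. Taken back from the log, the 8 libraries summed to 973085 to 1010760 CPM. One entry without a gene symbol (0.0368 to 0.0444% of CPM) was left out, and each column matched a labelled sample.

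All 28 libraries entered one limma model (limma 3.58.1, R 4.3.3) with a mean for each of the 7 groups, leaving 21 residual degrees of freedom, and variances were moderated along an intensity trend. The filter, log2 CPM over 0 in 4 or more libraries, removed 0 of 13128 genes. Contrasts were vehicle day 9 minus day 6, and that change minus the same change in corticosterone cultures. A gene is said to rise or fall where the adjusted p (Benjamini-Hochberg, over all genes of the contrast) was under 0.05. Errors after ± are SEs of the contrast with 4 libraries per group, and 4 values given for a day follow replicates 3, 4, 5 and 6. The scripts were tested on simulated data.

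The groups compared and the 52 gene lists were chosen with earlier results of these data known. Lists were described by counts and medians, with no set test. Genes were named where they were among the 15 largest called rises or falls whose days did not overlap and whose mean log2 CPM reached 1, among the 4 called members of a list with the smallest p, marked as core to a list, called against a list's median (up to 3), or among the 5 largest differences each way between vehicle and corticosterone cultures. Predicted gene models were passed over, and not every gene this allows is named. Transcript lengths came from GENCODE M21 by symbol (98.4% of genes) and promoters from RefSeq. The mitochondrial share was compared by exact permutation of libraries.

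Alternatives, tried one at a time, changed the filter (log2 CPM over 2, leaving 11460 genes, or none), the scaling (median centring or quantile normalization), the pseudocount (1 or 5 added to CPM), the libraries fitted (those compared, or all but 1), the variance model (untrended, robust, or with library weights), the threshold (adjusted p under 0.01, or 2-fold), the transcript length trend (removed by lowess, span 0.3) and the replicate number (as a block, with statmod 1.5.0).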

Additional observations from a re-analysis of the deposited data

Results flagged for a closer look

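In some genes 1 library stood far from the other 3 of its day. At day 6 the odd library lay above the rest, in log2 CPM, for L1cam (5.51 in replicate 3, against 5.07 for the nearest), B2m (7.79 in replicate 5, against 7.65 for the nearest) and H1f2 (2.02 in replicate 3, against 1.90 for the nearest). At day 6 the odd library lay below the rest, in log2 CPM, for Hsd11b2 (2.10 in replicate 3, against 2.29 for the nearest), Thsd7a (5.76 in replicate 5, against 6.08 for the nearest), Pax8 (6.98 in replicate 5, against 7.19 for the nearest), Igfbp3 (-0.43 in replicate 6, against 0.30 for the nearest), Bmp4 (3.35 in replicate 4, against 3.51 for the nearest) and Btc (1.33 in replicate 6, against 1.58 for the nearest). At day 9 the odd library lay above the rest, in log2 CPM, for Lox (7.25 in replicate 5, against 7.10 for the nearest) and Cxcl14 (1.79 in replicate 5, against 1.37 for the nearest). At day 9 the odd library lay below the rest, in log2 CPM, for Rab30 (2.39 in replicate 4, against 2.86 for the nearest), Egln1 (8.49 in replicate 4, against 8.61 for the nearest), Ldha (10.57 in replicate 4, against 10.64 for the nearest) and Cyp51 (7.82 in replicate 4, against 7.98 for the nearest). In each, the gap to the nearest library, divided by the range of the 4, was above Dixon's critical value for 4 samples. This held in 15 of 224 gene and day combinations checked (6.7%), and chance gives about 1 in 20. 

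For the following genes the change from day 6 to day 9 differed between vehicle and corticosterone cultures by the interaction contrast in limma, at an adjusted p under 0.05. Differences of log2 changes were positive for Adm (2.49), Lcn2 (3.39), Slc2a1 (0.61), Vegfa (0.66), Lox (1.13), Insig1 (0.45), Sgk1 (5.71), Trim67 (4.03), Cyp4a12a (3.88) and Igfbp3 (3.81). They were negative for Egln3 (-1.47), Hsd11b2 (-1.02), Cftr (-0.91), Ankrd37 (-2.08), Ldha (-0.75), Ccl2 (-1.24), Mki67 (-1.27), Aqp5 (-4.07), Mgp (-3.43), Cd300lb (-3.31), Spp1 (-3.11) and Samd5 (-2.99).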

How the results depend on the processing

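The 616 genes that rose and 413 that fell became 1397 and 1073 with weights per library, 353 and 179 at adjusted p under 0.01, and 56 and 6 with at least 2-fold change. With the 2-fold limit the hypoxia list kept 7 risers and the glycolysis and cholesterol synthesis lists 0, and the genes whose change differed between vehicle and corticosterone cultures fell to 341 above and 356 below. The cause of the shift with weights was not tested. The other alternatives gave 564 to 748 risers and 400 to 563 that fell. Leaving out 1 library gave 442 to 588 risers, the fewest without day 6 replicate 4. It gave 268 to 441 genes that fell, the fewest without day 6 replicate 3. For the difference from corticosterone cultures it gave 1758 to 2008 above and 1853 to 2090 below. Under the same omissions the hypoxia list had 24 to 25 risers, glycolysis 16 to 17 and cholesterol synthesis 18. The mitochondrial share differed by 0.187 percentage points, by 0.0974 to 0.249 when 1 library was left out (smallest possible p 0.0571), and by 0.334 (exact permutation p = 0.0286) when CPM were summed as deposited instead of divided by each library's sum. No pairing by replicate number was visible. Deviations of same-numbered day 6 and day 9 libraries correlated at 0.085, 0.11, -0.024 and -0.02, and 1 of 4 correlated best with its own number. With 4 libraries a day, whether same-numbered libraries shared a culture or batch cannot be told from these values. With the replicate number as a fixed block 624 genes rose and 434 fell, and as a random effect 630 and 432 (estimated correlation 0.017). The calls of 260 genes were followed, namely the 258 under the naming rule and others that the text names. Of the 175 called among them, 124 kept their call under all alternatives other than the stricter thresholds. Depth is unknown, and 4 libraries a day limit what could be called.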

Other observations

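Other lists moved in part between day 6 and day 9 in vehicle, where 4.69% of all genes tested rose and 3.15% fell. Counts near those shares are not read as particular to a list. Of 34 targets and components of TGF-beta and BMP signalling, 10 rose and 3 fell. Bmp4 and Tgfb1, which encode secreted ligands, rose by 0.57 ± 0.090 and 0.43 ± 0.090 on the log2 scale, and Bmp1, a protease that processes procollagen, fell by 0.48 ± 0.086 (adjusted p = 0.000112, 0.00242 and 0.000523). Of 24 targets of the Hippo pathway coactivators, 3 rose and 5 fell, with a median of -0.13. Cavin2, a coat protein of caveolae, changed by -0.49 ± 0.066 (adjusted p = 1.41e-05). Of 12 genes of the EGF receptor family and its ligands, 4 rose and 0 fell, and the ligand Btc (betacellulin) rose by 0.69 ± 0.12 (adjusted p = 0.000281). Of 48 lysosomal genes, 3 rose and 6 fell: the protease Ctsb rose by 0.21 ± 0.046, whereas Gusb and Man2b1, which cut sugars from glycoconjugates, changed by -0.27 ± 0.050 and -0.25 ± 0.050 (adjusted p = 0.00379, 0.000714 and 0.00138). The linker histones H1f2 and H1f0 rose by 0.81 ± 0.13 and 0.35 ± 0.054, within a list of 11 histone genes of which 3 rose and 0 fell (adjusted p = 0.000120 and 7.10e-05). Of 20 clock genes, 3 rose and 0 fell. Bhlhe40, a clock repressor that is also hypoxia-inducible and stands in both lists, rose by 0.68 ± 0.084 (adjusted p = 4.00e-06).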
